A study of Mus musculus with 21 samples.

Results

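Does the loss of Stag2 change the same genes in stem and progenitor cells as in erythroid progenitors? That question was put to 14 of the 21 RNA libraries of this mouse series, the 7 from LSK cells and the 7 from CFU-E cells. LSK cells are lineage-negative, Sca-1-positive, Kit-positive marrow cells that hold stem and multipotent progenitor cells, and CFU-E are committed erythroid progenitors. The groups were Stag2 knockout (KO) LSK (n = 3), wild-type (WT) LSK (n = 4), KO CFU-E (n = 4) and WT CFU-E (n = 3). The sources used here do not state the allele, the way it was deleted, the strain or the age of the animals. Marrow of all groups was depleted of cells with lineage markers before the sort. LSK RNA was amplified over full transcripts (SMARTer), whereas CFU-E RNA was sequenced at the 3′ end (SMART-Seq2), so levels were never compared between the populations. For each gene the quantity of interest was the difference in KO effect: the log2 ratio of KO over WT in LSK minus that in CFU-E, positive where the KO effect was higher in LSK.

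Cohesin is a ring-shaped protein complex that holds sister chromatids together and shapes the chromatin loops through which enhancers reach promoters. Each ring carries either STAG1 or STAG2, and STAG2 is among the cohesin genes mutated in myeloid malignancies. Since enhancer use differs between a stem cell and an erythroid progenitor, the genes that answer to a missing subunit can differ between them.

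The LSK libraries held 22813333 to 32196233 counts and the CFU-E libraries 3654667 to 5550165. Values below are CPM, counts scaled to library size with TMM factors. Marker genes followed the labels: in every LSK library Kit stood at 291.6 CPM or more and Cd34 at 675.4 or more, and in every CFU-E library Gata1 stood at 241.5 or more, Klf1 at 664.5 or more and Car1 at 2690 or more. Alas2, an erythroid heme synthesis gene, was at only 0.315 to 1.223 CPM in CFU-E, and 31 genes with at least 50 CPM in every LSK library, Ilk among them, had no count in any CFU-E library, so for such genes no effect could be measured in CFU-E. The CFU-E libraries came from 2 flow cells named in the descriptions, here A (KO 1, WT 1 and WT 2) and B (KO 2, KO 3, KO 4 and WT 3), and the fit carries a term for them. The Y-linked gene Ddx3y was at 67.55 to 107.1 CPM in CFU-E and at most 0.03494 in LSK, so population, library kit and the sex of the animals cannot be told apart. The labels number the replicates without saying whether each was its own animal, and the p-values cover the spread of these libraries, which may be technical.

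The difference in KO effect passed an adjusted p of 0.05 in 7 of 16474 genes tested (0.0425%). In 4 genes, Gna14, Cnn3, Mboat2 and Tsc22d1, the KO effect was higher in LSK than in CFU-E (0.0243%), and in 3 genes, Tpm4, Actn1 and Tspan14, it was lower (0.0182%). All 7 changed in CFU-E, where 88 genes did (0.534%), and 2 of them, Tsc22d1 and Cnn3, also changed in LSK, where 32 genes did (0.194%, of which 9 rose, 0.0546%, and 23 fell, 0.14%). Tsc22d1 changed in opposite directions, rising in LSK and falling in CFU-E. Without WT 3 only 1 gene, Cnn3, was called in CFU-E. WT 3 is the only WT library on flow cell B. Given the flow cell term, its loss leaves KO 1 against WT 1 and WT 2 to carry the CFU-E effect. Likewise, without KO 1, the only KO library on flow cell A, KO 2, KO 3 and KO 4 against WT 3 carry it. Before adjustment, 1219 genes (7.4%) had a difference with p under 0.05, 472 of them (2.87%) with the higher and 747 (4.53%) with the lower effect in LSK.

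Across genes the effects of the 2 populations were weakly related. Of the 16474 genes, 8249 (50.1%) had the same sign in both populations. Over the 8418 genes in which the higher genotype mean was at least 5 CPM in each population, Pearson's r between the effects was 0.1163 and Spearman's rho 0.03, a description across genes that are not independent replicates. The median standard error of the effect over these genes was 0.18 in LSK and 0.22 in CFU-E, and that of the difference 0.29, on the log2 scale. Most genes called in CFU-E had the same sign in LSK: of 35 that rose in CFU-E KO (0.212% of all genes), 27 (77.1%) were positive in LSK, and of 53 that fell (0.322%), 42 (79.2%) were negative in LSK. Their sizes differed, with a median of 1.70 in CFU-E and 0.17 in LSK for those that rose, and of −2.18 and −0.47 for those that fell. Of genes called in LSK, 5 of 9 that rose (55.6%) and 14 of 23 that fell (60.9%) had the same sign in CFU-E. The choice of the first sets by their CFU-E effect makes the CFU-E medians large by construction.

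**Figure D1:**
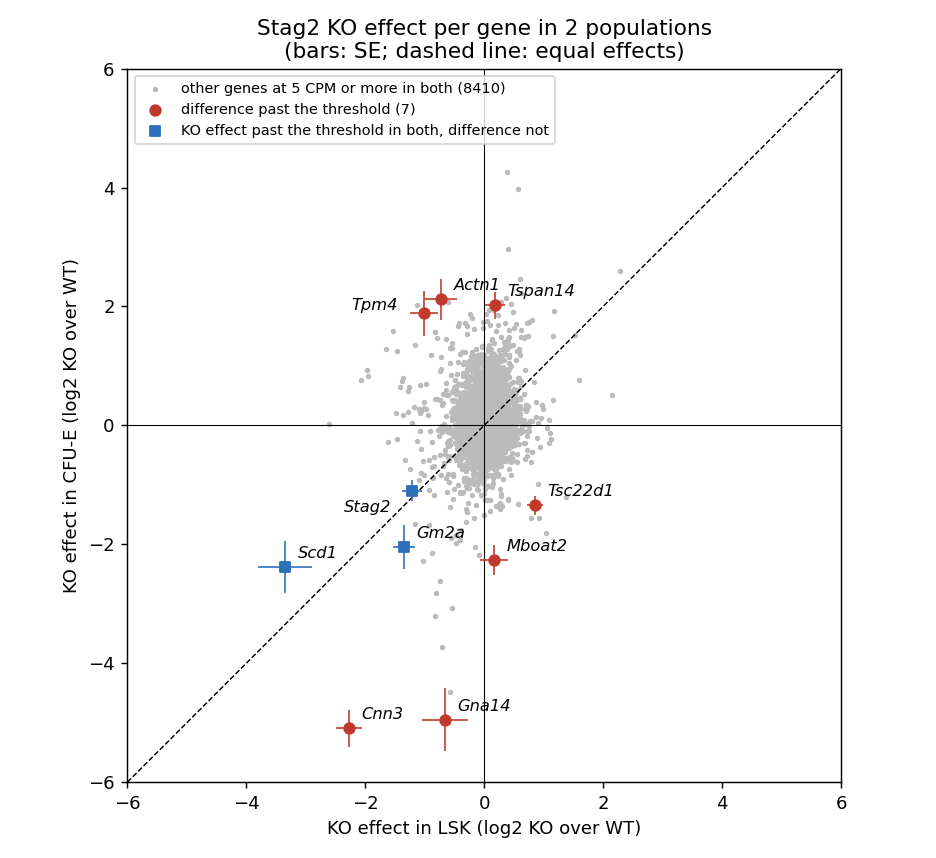
Stag2 KO effect in LSK (x axis, log2 KO over WT) against that in CFU-E (y axis, log2 KO over WT). Grey points are the other genes at 5 CPM or more in both populations, red points are the 7 genes whose difference passed the threshold, blue squares are 3 genes that fell in both populations without a called difference, and bars are SE. Tpm4 and Actn1 sit in the upper left, Tsc22d1 in the lower right, and Cnn3 lies below 0 on both axes.

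Of the 7 genes, 3 encode proteins of actin filaments, and their promoters are shown here because they moved in different ways. CNN3 (calponin 3) and TPM4 (tropomyosin 4) bind along actin filaments, and ACTN1 (alpha-actinin 1) cross-links them. TPM4 and ACTN1 are known for their part in platelet formation from megakaryocytes. The windows run 5′ to 3′ on the gene's strand, from 250 to 51 bases before the RefSeq start (GRCm38.p6), with GGAAG, the core of ETS family sites, in capitals.
Cnn3: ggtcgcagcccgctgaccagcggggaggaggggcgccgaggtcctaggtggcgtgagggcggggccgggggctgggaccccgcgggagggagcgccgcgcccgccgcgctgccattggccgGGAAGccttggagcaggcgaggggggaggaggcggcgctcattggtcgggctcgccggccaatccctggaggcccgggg
Actn1: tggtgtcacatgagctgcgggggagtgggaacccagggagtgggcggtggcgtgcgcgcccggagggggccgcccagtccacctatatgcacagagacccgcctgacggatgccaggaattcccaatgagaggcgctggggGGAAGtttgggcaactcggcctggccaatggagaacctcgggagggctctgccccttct
Tpm4: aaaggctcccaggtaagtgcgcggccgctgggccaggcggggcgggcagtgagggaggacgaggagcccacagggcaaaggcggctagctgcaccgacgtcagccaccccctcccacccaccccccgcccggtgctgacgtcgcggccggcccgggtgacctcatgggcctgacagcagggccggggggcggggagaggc
They lie at chr3:121426291-121426490 on the plus strand, at chr12:80260414-80260613 on the minus strand and at chr8:72135038-72135237 on the plus strand. GGAAG, searched on both strands, begins 129 bases before the start in Cnn3 and 109 bases before it in Actn1, and is not in the Tpm4 window. It is common, standing in 55.0% of all 32851 RefSeq windows of this length. The GATA motif AGATAA (8.42% of windows) and the CArG box of serum response factor (1.16%) are in none of the windows of the 7 genes, all 7 of which matched the table by symbol. TGTGGT, a core of RUNX sites (11.6%), is in 1 of 5 Tsc22d1 windows only. The GC content of the windows was 79.0% for Cnn3, 66.5% for Actn1 and 75.5% for Tpm4, against a median of 51.5%.

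Tpm4 pointed in opposite directions. In LSK it stood at 34.28, 27.14 and 31.96 CPM in KO and at 47.17, 65.81, 56.47 and 82.28 in WT, so every KO library was below every WT library. In CFU-E the order was the opposite, with 9.784, 14.28, 7.365 and 8.341 CPM in KO (27 to 59 counts) and 1.641, 3.874 and 2.52 in WT (6 to 16 counts). The log2 fold change was −1.01 ± 0.239 (SE) in LSK (adjusted p = 0.129), short of the threshold, and Tpm4 rose by 1.88 ± 0.382 in CFU-E (adjusted p = 0.0424). The difference was −2.90 ± 0.449 (95% interval −3.86 to −1.94, adjusted p = 0.0263). Within flow cell A it was −2.77 (adjusted p = 0.387) and within B −3.02 (0.138). The call ended without LSK KO 1, KO 2, KO 3 or WT 3 (adjusted p = 0.101, 0.0988, 0.0801 and 0.0585), without CFU-E KO 1, WT 1 or WT 3 (0.136, 0.0958 and 0.426), without LSK WT 2 and WT 4 together (0.0593), and with limma-voom (0.262, or 0.128 with quality weights), all with the same sign. The CFU-E rise of Tpm4 alone ended without LSK WT 2, WT 3 or any LSK KO library (0.0526 to 0.0679), and without CFU-E WT 1, WT 3, KO 1 or KO 4 (0.112, 0.524, 0.165 and 0.058). That rise also ended with limma-voom (0.387, or 0.182 with quality weights) and with a replicate block, a term for the replicate number (0.315).

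Actn1 showed the same pattern as Tpm4. In LSK it stood at 4.898, 4.881 and 6.649 CPM in KO and at 8.651, 9.859, 8.97 and 8.804 in WT, again without overlap. In CFU-E it stood at 20.55, 22.76, 15.75 and 9.886 CPM in KO and at 4.103, 6.538 and 3.15 in WT (10 to 27 counts), with every KO library above every WT library. Its log2 fold change in LSK was −0.73 ± 0.265 (adjusted p = 0.502), and it rose by 2.12 ± 0.344 in CFU-E (adjusted p = 0.0132), a difference of −2.85 ± 0.436 (95% interval −3.78 to −1.92, adjusted p = 0.0263). Within flow cell A the difference was −2.63 (adjusted p = 0.266) and within B −3.11 (0.138). The call ended without LSK KO 1, KO 2, KO 3 or WT 3 (adjusted p = 0.102, 0.0859, 0.0666 and 0.0585), without CFU-E KO 1, KO 3, WT 1 or WT 3 (0.121, 0.0667, 0.0979 and 0.426) and without LSK WT 2 and WT 4 together (0.0593). The CFU-E rise of Actn1 alone ended without CFU-E WT 3 (0.323) or KO 1 (0.0953) and with the replicate block (0.126).

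Cnn3 fell in both populations and far more in CFU-E. In LSK it stood at 4.254, 4.219 and 5.471 CPM in KO and at 19.17, 25.4, 23.39 and 21.87 in WT. In CFU-E it nearly disappeared, from 34.74, 39.23 and 36.54 CPM in WT (116 to 162 counts) to 0.4892, 1.695, 1.524 and 0.9268 in KO (2 to 7 counts). KO and WT libraries were far apart in each population. The fall was 4.825-fold in LSK (log2 fold change −2.27 ± 0.223, adjusted p = 0.000344) and 34.2-fold in CFU-E (−5.10 ± 0.308, adjusted p = 8.68e-07), the second poorly determined in size at so few KO counts. The difference was 2.83 ± 0.387 (95% interval 2.0 to 3.65, adjusted p = 0.0207). It was 4.0 within flow cell A (adjusted p = 0.149) and 2.41 within B (0.123). The call ended without LSK KO 3 or WT 3 (adjusted p = 0.0666 and 0.0584) and without CFU-E KO 1, WT 1 or WT 3 (0.0847, 0.0576 and 0.106).

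**Figure D2:**
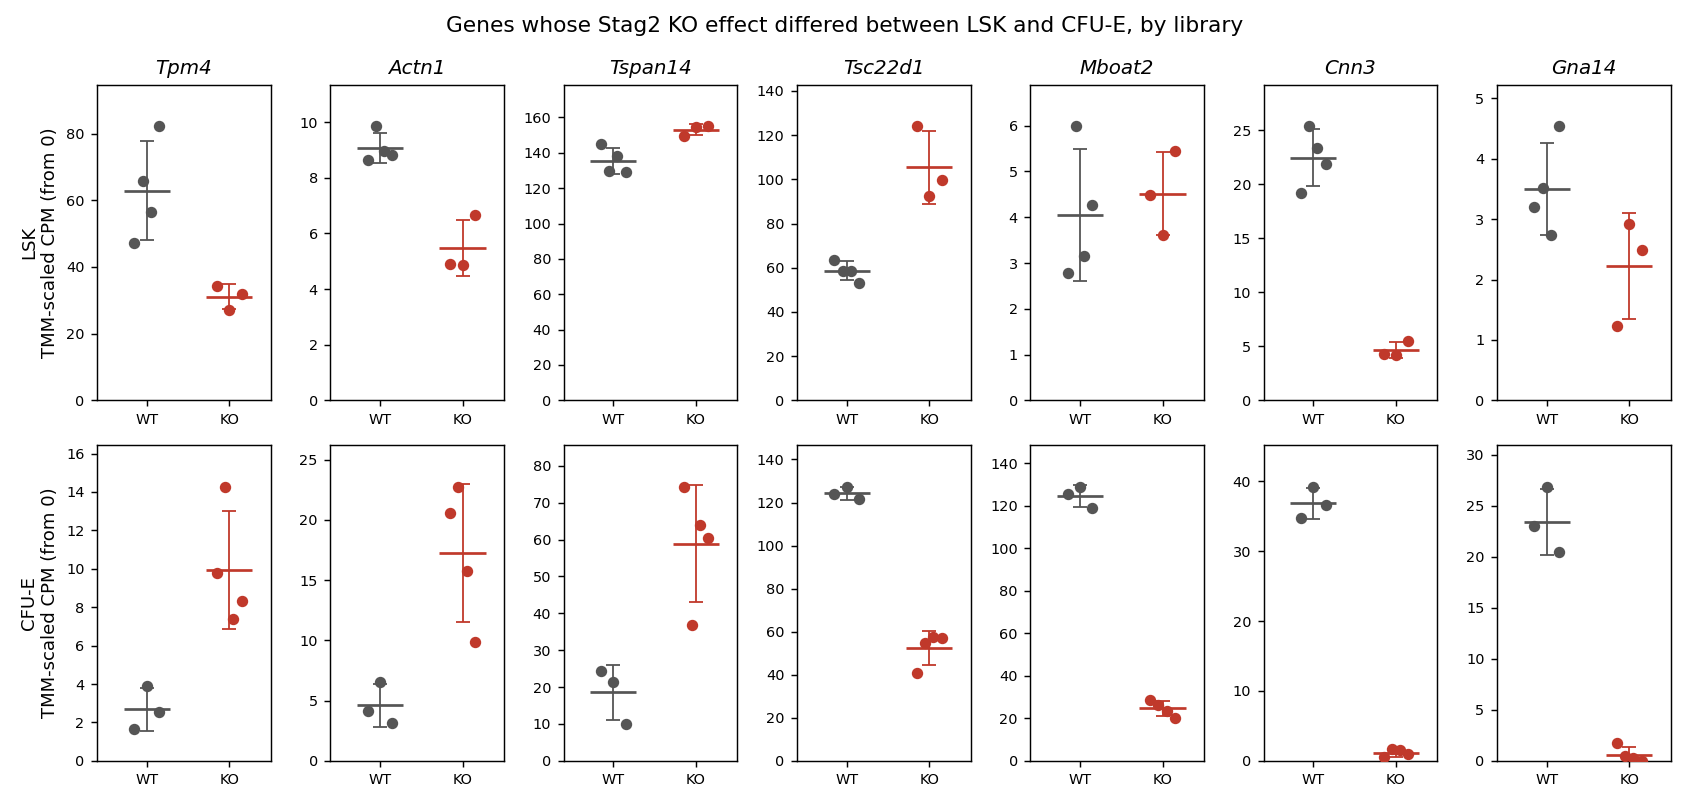
CPM in each library (y axis, from 0, scaled per panel) of the 7 genes whose KO effect differed, in LSK (upper row) and CFU-E (lower row), by genotype (x axis). Points are libraries, bars the mean ± SD (3 KO and 4 WT in LSK, 4 KO and 3 WT in CFU-E), and heights are to be read only within a panel. In CFU-E the KO and WT points are apart in all 7 genes, and in LSK they overlap in Mboat2 and Gna14.

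In a list of 28 actin cytoskeleton and adhesion genes, 27 were tested and 3 had a called difference (Cnn3 above, Actn1 and Tpm4 below), beside 0.0425% of all genes. As with every list here, the members were chosen with earlier results of these data known, so no enrichment is read from such counts. At an unadjusted p under 0.05 there were 1 above and 6 below (2.87% and 4.53% of all genes). The list's median difference was −0.16, beside −0.04 over all genes. No difference was called in relatives of these genes: Tpm1 and Tpm3, which share the tropomyosin fold with TPM4, had differences of −0.06 ± 0.218 and −0.12 ± 0.227, and Actn4, the other non-muscle alpha-actinin, 0.10 ± 0.294 (adjusted p = 1 for each). F11r and Esam, adhesion molecules of cell junctions and platelets, rose in CFU-E KO by 4.26 ± 0.659 and 2.47 ± 0.482 (adjusted p = 0.0104 and 0.0343). Their differences, −3.88 ± 0.761 and −1.86 ± 0.568, did not pass (adjusted p = 0.096 and 0.378), though that of F11r had 0.043 when only genes that pass the filter within each population were tested. These 5 genes were named after their values were seen.

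Among the other called genes, 3 encode membrane or signalling proteins. TSPAN14 is a tetraspanin that accompanies the protease ADAM10, MBOAT2 transfers fatty acids onto lysophospholipids, and GNA14 is a G protein alpha subunit of the Gq family. In LSK Tspan14 stood at 149.3, 154.6 and 155.1 CPM in KO and at 144.7, 129.9, 138 and 129.2 in WT, close ranges that did not overlap. In CFU-E it stood at 74.36, 36.8, 64 and 60.55 CPM in KO and at 24.34, 21.31 and 10.08 in WT. Its effect was 0.18 ± 0.169 in LSK (adjusted p = 0.997), and it rose by 2.02 ± 0.223 in CFU-E (adjusted p = 0.000672), a difference of −1.84 ± 0.282 (95% interval −2.44 to −1.24, adjusted p = 0.0263). The difference was −1.49 within flow cell A (adjusted p = 0.18), −2.26 within B (0.123) and −1.48 with no flow cell term (0.124). Of the 7 calls that of Tspan14 ended most often: without LSK KO 1, KO 2, KO 3 or WT 3 (adjusted p = 0.102, 0.102, 0.0801 and 0.0585), without CFU-E KO 1, KO 4, WT 1, WT 2 or WT 3 (0.0847, 0.0503, 0.0576, 0.0687 and 0.461), without LSK WT 2 and WT 4 together (0.0697), and with limma-voom (0.0701, or 0.0603 with quality weights).

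Mboat2 and Gna14 were low in LSK and lost most of their signal in CFU-E KO. Mboat2 stood at 28.62, 26.39, 23.62 and 20.08 CPM in CFU-E KO and at 125.6, 129.1 and 119.1 in WT. In LSK it stood at 4.477, 3.621 and 5.443 CPM in KO and at 2.787, 5.992, 3.144 and 4.262 in WT, ranges that overlap. The log2 fold change was 0.17 ± 0.234 in LSK (adjusted p = 0.997), and it fell by 2.26 ± 0.251 in CFU-E (adjusted p = 0.000672). The difference was 2.42 ± 0.342 (95% interval 1.69 to 3.15, adjusted p = 0.0207), and 2.36 within flow cell A (0.465) and 2.50 within B (0.125). The call of Mboat2 ended without LSK KO 1, KO 3 or WT 3 (adjusted p = 0.0721, 0.0666 and 0.0584) and without CFU-E KO 1, WT 1 or WT 3 (0.0847, 0.0576 and 0.426).

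Gna14 stood at 22.98, 26.88 and 20.48 CPM in CFU-E WT (65 to 111 counts) and at 1.712, 0.4842, 0.254 and 0 in KO (7, 2, 1 and 0 counts). In LSK it stood at 1.237, 2.928 and 2.497 CPM in KO and at 3.208, 3.519, 2.737 and 4.542 in WT, again with overlap. The LSK effect was −0.66 ± 0.385 (adjusted p = 0.921) and in CFU-E Gna14 fell by 4.95 ± 0.532 (adjusted p = 0.000672), a size that rests on 10 KO counts in all. The difference was 4.29 ± 0.662 (95% interval 2.88 to 5.71, adjusted p = 0.0263), 3.25 within flow cell A (adjusted p = 0.515) and 5.58 within B (0.0679). Its call ended without LSK KO 2, KO 3 or WT 3 (adjusted p = 0.0988, 0.0809 and 0.0585), without CFU-E KO 2, KO 3, WT 1, WT 2 or WT 3 (0.0627, 0.091, 0.0576, 0.0561 and 0.559), without LSK WT 2 and WT 4 together (0.0593), and with limma-voom (0.0701, or 0.0603 with quality weights).

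Tsc22d1, a leucine zipper protein of the TSC22 family that is induced by TGF-beta, kept its call under the most alternatives of the 7. In LSK it rose, from 63.63, 58.70, 58.72 and 53.21 CPM in WT to 124.1, 92.51 and 99.68 in KO. In CFU-E it fell, from 123.9, 127.4 and 121.6 CPM in WT to 40.85, 54.95, 57.4 and 57.15 in KO. No KO library overlapped a WT library in either population. The log2 fold change was 0.85 ± 0.136 in LSK (adjusted p = 0.0174) and −1.34 ± 0.162 in CFU-E (adjusted p = 0.00131), and the difference 2.19 ± 0.212 (95% interval 1.74 to 2.64, adjusted p = 0.000542). Within flow cell A it was 2.51 (adjusted p = 0.0589) and within B 1.94 (0.0679). Its call held when each of the 14 libraries was left out in turn, with values from 1.95 to 2.49. The calls within a population were less firm. The LSK rise ended without LSK KO 1 or KO 3 (adjusted p = 0.103 and 0.0536) or without WT 2 and WT 4 together (0.118). The CFU-E fall ended without CFU-E WT 3 (0.0587), and both ended with the replicate block (0.309 in LSK and 0.126 in CFU-E). Within flow cells A and B the CFU-E log2 fold change was −1.64 and −1.06, each with a lone library in 1 genotype.

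KO and WT libraries did not overlap in either population in 5 of the 7 genes, and in CFU-E in all 7. Of all genes tested 1232 (7.48%) showed no overlap in LSK, 1372 (8.33%) in CFU-E and 135 (0.819%) in both, and nothing is read from these counts because the same libraries gave the calls. The count of called differences depended on single libraries: it was 24 without LSK WT 1, and leaving out WT 2, WT 3 or WT 4 gave 11, 1 and 12. Leaving out LSK KO 1, KO 2 or KO 3 gave 3, 4 and 1. Among CFU-E libraries, leaving out WT 1, WT 3 or KO 1 gave 1, 1 and 2, with Tsc22d1 called in each case. Without LSK WT 2 and WT 4 together, 8 genes passed, of which 3 are among the 7. With only flow cell A (1 KO and 2 WT) or only flow cell B (3 KO and 1 WT) for CFU-E, where the lone library is assumed to vary like the others, no difference passed in edgeR's quasi-likelihood test (1065 and 1737 genes at an unadjusted p under 0.05, against 1219 with all 14 libraries).

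**Figure D3:**
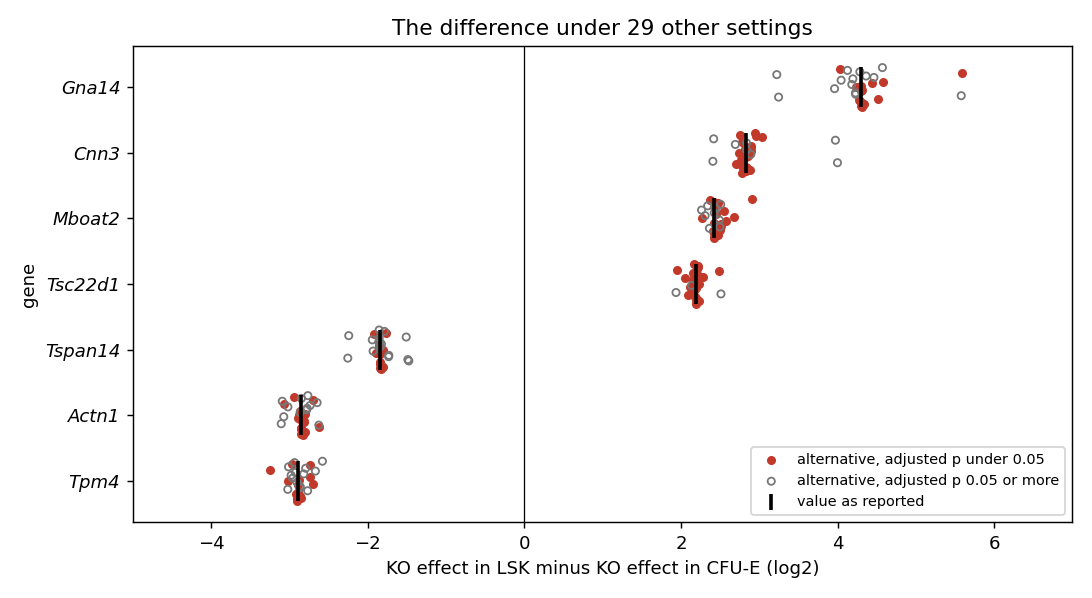
Difference in KO effect (x axis, log2, LSK minus CFU-E) of the 7 genes (y axis) under 29 other settings. Filled points are settings with an adjusted p under 0.05, open points are the others, spread vertically only to be seen apart, and the black bar is the value as reported. All 7 genes keep their side of 0, and Cnn3 and Gna14 spread most, from 2.41 to 4.0 and from 3.22 to 5.58.

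The targeted gene itself fell in both populations, with no called difference. Stag2 stood at 66.59, 56.11 and 55.72 CPM in LSK KO and at 150.8, 143.1, 122.7 and 134.9 in LSK WT. In CFU-E it stood at 87.57, 53.5, 82.29 and 88.05 CPM in KO and at 159.2, 155.7 and 186.2 in WT, so no KO library reached a WT library in either population. The log2 fold change was −1.21 ± 0.17 in LSK (adjusted p = 0.00649) and −1.10 ± 0.18 in CFU-E (adjusted p = 0.0132), with a difference of −0.11 ± 0.245 (95% interval −0.64 to 0.41, adjusted p = 1). In LSK the fall missed the threshold without KO 3 (adjusted p = 0.0514) or without WT 2 and WT 4 together (0.0729), and in CFU-E it did so without WT 3 (0.704) and within flow cell A (0.411) or B (0.0685). With the replicate block the fall missed the threshold in both populations (0.0617 in LSK and 0.212 in CFU-E). The CFU-E libraries cover transcript ends alone, where a deletion elsewhere in the gene need not show. Full transcripts were amplified for LSK, and the source of the Stag2 counts left in KO was not tested in either population. Stag1, its paralog in the ring, had an effect of 0.42 ± 0.135 in LSK (adjusted p = 0.382), one of 0.29 ± 0.151 in CFU-E (0.606), and a difference of 0.13 ± 0.202 (95% interval −0.30 to 0.56). Of 17 cohesin genes and regulators 0 had a called difference (0 at an unadjusted p under 0.05, against 7.4% of all genes). Their median difference was 0.19.

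In all, 6 genes passed in both populations (0.0364%), among them Tsc22d1, Cnn3, Stag2, Scd1 and Gm2a. Scd1, the stearoyl-CoA desaturase, fell by 3.35 in LSK, to 0.7713 ± 0.533 CPM (SD, n = 3) from 8.011 ± 3.22 (n = 4), and by 2.38 in CFU-E, to 8.087 ± 0.625 (n = 4) from 41.82 ± 3.69 (n = 3), on the log2 scale (adjusted p = 0.0057 and 0.0252). Its difference of −0.97 ± 0.614 did not pass (95% interval −2.28 to 0.34, adjusted p = 0.807). The call of Scd1 ended in LSK without LSK KO 1 (0.0584), and in CFU-E without WT 1 (0.06), WT 3 (0.721) or any CFU-E KO library (0.0559 to 0.0967). In CFU-E it also ended with limma-voom (0.176, though 0.0463 with quality weights). With the replicate block it ended in both populations (0.227 in LSK and 0.526 in CFU-E). Within flow cells A and B the CFU-E effect was −2.19 and −2.51. Gm2a, the lysosomal GM2 ganglioside activator, named after its values were seen, fell by 1.35 and 2.04 (adjusted p = 0.0057 and 0.0209), with a difference of 0.69 ± 0.413 (95% interval −0.19 to 1.57, adjusted p = 0.789). Its CFU-E fall rests on few counts, 4 to 9 per KO library and 17 to 35 per WT library. Intervals this wide leave room for differences in Scd1 and Gm2a, in Scd1 even beyond the −1.84 called for Tspan14.

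Megakaryocyte and platelet genes made up the list with the most even direction. Erythroid and megakaryocytic cells share a progenitor, and the list holds the platelet receptor integrins, glycoproteins, granule proteins and their regulators. Of its 30 members 28 passed the filter on low counts, and in all 28 the KO effect was lower in LSK than in CFU-E. None of these differences passed in edgeR (13 at an unadjusted p under 0.05, against 4.53% of all genes). In DESeq2 4 passed, beside 90 of all 16474 genes tested. The median over the 28 was −0.99 beside −0.04 over all genes tested. The effect was positive in CFU-E in 28 of 28, with a median of 1.49, and in LSK in 16 of 28, with a median of 0.17. Over the 16 members with 5 CPM or more in both populations the median difference was −0.89.

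In CFU-E KO, 5 members rose (35 of all genes, 0.212%), and none changed in LSK (0.194% of all genes). Itga2b and Itgb3, the chains of the platelet fibrinogen receptor, reached 207.4 ± 85.7 and 51.87 ± 15.6 CPM in CFU-E KO (SD, n = 4) from 65.82 ± 21.5 and 14.51 ± 6.16 in WT (n = 3), log2 effects of 1.60 ± 0.337 and 1.92 ± 0.358 (adjusted p = 0.0493 and 0.0256). In LSK their effects were 0.62 ± 0.283 and 1.17 ± 0.288 (adjusted p = 0.744 and 0.158), so for these chains the sign was shared and the differences were −0.98 ± 0.439 and −0.75 ± 0.459. Plek, the platelet kinase substrate pleckstrin, rose by 1.70 ± 0.296 in CFU-E (adjusted p = 0.0177) and had 0.54 ± 0.232 in LSK. Rab27b, a granule transport GTPase, rose by 1.73 ± 0.347 (adjusted p = 0.0408), and Ppbp, a platelet chemokine with under 1 CPM in LSK, by 3.51 ± 0.705 (adjusted p = 0.0416). The number of members that rose in CFU-E ranged from 0, without CFU-E WT 3, to 6, without LSK WT 1, and was 1 without CFU-E WT 1 or KO 1, 2 without CFU-E KO 4, LSK WT 4 or LSK KO 1 and 3 without LSK KO 2 or KO 3.

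In 12 of the 28 members the effect was negative in LSK and positive in CFU-E, Cd9 and Vwf among them. Cd9, a tetraspanin of platelets, stood at 71.29, 53.28 and 71.21 CPM in LSK KO and at 88.19, 121.5, 91.08 and 129.7 in WT. In CFU-E it stood at 14.68, 11.38, 12.19 and 15.45 CPM in KO and at 10.67, 5.569 and 4.411 in WT. Neither population showed overlap between genotypes, and the difference of −1.88 ± 0.367 fell short of the threshold (adjusted p = 0.096), though it passed in DESeq2 (0.000835) and without the filter on low counts (0.0225). Vwf, the von Willebrand factor of megakaryocytes and platelet-primed stem cells, had a log2 fold change of −1.39 ± 0.334 in LSK and 0.74 ± 0.378 in CFU-E, a difference of −2.13 ± 0.503 (adjusted p = 0.21). Apart from Cd9, the members of the list were named after their values were seen.

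**Figure D4:**
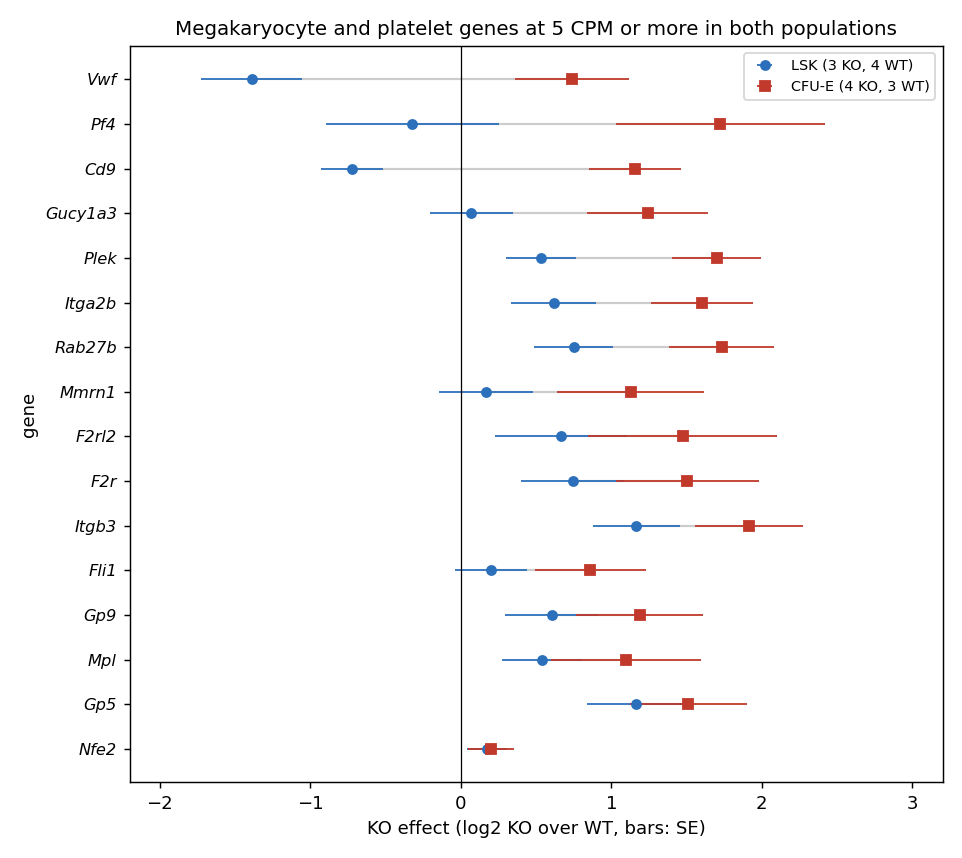
KO effect (x axis, log2 KO over WT) in LSK (blue circles) and CFU-E (red squares) of the 16 megakaryocyte and platelet genes with 5 CPM or more in both populations (y axis). Bars are SE, and grey lines join the effects of a gene. The red square lies to the right of the blue circle in all 16, Vwf and Cd9 lie on opposite sides of 0, and in Nfe2 the symbols nearly coincide.

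The summed level of the 30 listed genes was 1140, 2029, 1019 and 1139 CPM in the CFU-E KO libraries and 338.1, 654.5 and 418.4 in WT, and 1828 to 2035 in LSK KO and 1469 to 1811 in LSK WT. In each population every KO library stood above every WT library, as did Actn1, Tpm4 and Tspan14 in CFU-E. Tpm4 ranked the CFU-E libraries as the sum did within KO and within WT. In KO it stood at 14.28 CPM in KO 2, 9.784 in KO 1, 8.341 in KO 4 and 7.365 in KO 3. Within KO, Actn1 and Tspan14 did not follow the sum throughout. KO 2 had the highest sum, the highest Actn1 (22.76 CPM) and the lowest Tspan14 (36.8 CPM), and KO 4 had the lowest Actn1 (9.886 CPM). The part of megakaryocyte markers in those gains was not tested. In sorted bulk RNA, more cells of a type and more RNA per cell cannot be told apart. Within flow cell A the list's median difference was −0.84 with 23 of 28 negative, and within B it was −1.71 with 27 of 28 negative.

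Genes of the erythroid lineage had differences of both signs. Of 34 tested erythroid regulator and membrane genes 0 were called by edgeR (3 above and 4 below at an unadjusted p under 0.05, against 2.87% and 4.53% of all genes), with a median difference of −0.20. DESeq2 called 1, Nfia, beside 90 of all 16474 genes. Gata1 and Klf1, the master regulators of the lineage, had differences of 0.24 ± 0.388 and 0.20 ± 0.587 (adjusted p = 0.99 and 1), both named after their values were seen. The member with the smallest p was Nfia, a nuclear factor that favours erythroid fate, at 8.847 ± 1.29 CPM in LSK KO and 14.13 ± 0.374 in WT, with a difference of −0.70 ± 0.196 (adjusted p = 0.319, or 0.0386 in DESeq2). Of 22 heme and iron genes 0 were called (1 at an unadjusted p under 0.05, against 7.4% of all genes). Their median was −0.02, and Slc25a38, the mitochondrial glycine carrier for heme synthesis, had −0.65 ± 0.26 (adjusted p = 0.577). Of 8 globin genes 4 were tested, 0 were called, and Hba-a2 had −3.51 ± 1.12 (adjusted p = 0.405) on 0 to 2 counts per library in LSK KO. Near-identical globin copies share reads, so their values are uncertain.

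No stem cell gene had a called difference, and 12 of the 25 reached 5 CPM in both populations. At an unadjusted p under 0.05 there were 2 above and 5 below, against 2.87% and 4.53% of all genes, and the median was −0.59. DESeq2 called 0. Meis1, a homeobox partner of the Hox proteins in stem cells, stood at 18.83, 13.8, 12.44 and 18.23 CPM in CFU-E KO and at 6.838, 6.295 and 9.451 in WT, without overlap, and rose (log2 fold change 1.09, adjusted p = 0.0474). The call was marginal: with RLE factors Meis1 had 0.0591, with TMM within each population 0.0731, with limma-voom 0.518, within flow cells A and B 0.18 and 0.436, and it also ended without LSK WT 2, WT 3, WT 4 or any LSK KO library (0.0554 to 0.0861), any CFU-E WT library (0.133 to 0.183), CFU-E KO 1 (0.397) or KO 4 (0.0866). In LSK, where Meis1 was at 222.5 to 293.4 CPM in every library, KO and WT overlapped (0.05, adjusted p = 0.997). The difference of −1.04 ± 0.28 did not pass (adjusted p = 0.309).

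The late neutrophil list had a negative median that rests on 2 WT LSK libraries. Of 21 tested late neutrophil genes 0 were called (0 above and 7 below at an unadjusted p under 0.05, against 2.87% and 4.53% of all genes) and 19 had a lower effect in LSK, with a median of −2.09. Their summed level in LSK WT was 816.8, 9598, 1994 and 5325 CPM in WT 1 to WT 4 and 1213, 1697 and 2287 in KO. Only WT 2 and WT 4 stood above the KO libraries. Without these 2 libraries the median difference over the 17 members still tested was −0.23, and the LSK median turned from −1.28 to 0.32. Lyz2, the lysozyme of monocytes and granulocytes, showed the same libraries apart, with 238.1, 1411, 345.2 and 830.8 CPM in LSK WT and 312.5, 260.7 and 377 in KO (difference −2.50 ± 0.846, adjusted p = 0.452). Retnlg had −4.45 ± 1.55 (adjusted p = 0.476) and Serpinb1a, an inhibitor of neutrophil proteases, −1.41 ± 0.419 (adjusted p = 0.355).

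The other myeloid lists had no called difference either. Of 25 monocyte and macrophage genes 22 were negative (median −1.64, 3 below at an unadjusted p under 0.05), of 20 primary granule genes 18 (median −1.15, 2 below) and of 17 MHC class II and dendritic cell genes 14 (median −1.03, 0 at an unadjusted p under 0.05). Over all genes 4.53% were below at that p. The summed monocyte level was 728 CPM in LSK WT 1, within the 671.3 to 1067 of the KO libraries, and 1480 to 2478 in WT 2 to WT 4. The MHC class II sum was 1014 CPM in WT 1 and 3741 to 5118 in WT 2 to WT 4, against 1039 to 2893 in KO. Without WT 2 and WT 4 together the median differences were −1.04, −0.66 and −0.30. Many of the genes had few CFU-E counts: only 4, 12 and 4 members of the 3 lists reached 5 CPM in both populations.

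Lymphoid lists had no called difference. Of 26 tested lymphoid priming genes, 0 differences passed in edgeR, with a median of 0.14. At an unadjusted p under 0.05 there were 1 above and 3 below, against 2.87% and 4.53% of all genes. DESeq2 called 1, beside 90 of all 16474 genes. Of 14 mature B cell genes 0 differences passed (2 below at an unadjusted p under 0.05, against 4.53% of all genes). The smallest p belonged to Cd180, a B cell receptor of the Toll-like family, at −2.65 ± 0.978 (adjusted p = 0.537) with 0 to 14 CFU-E counts per library.

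**Figure D5:**
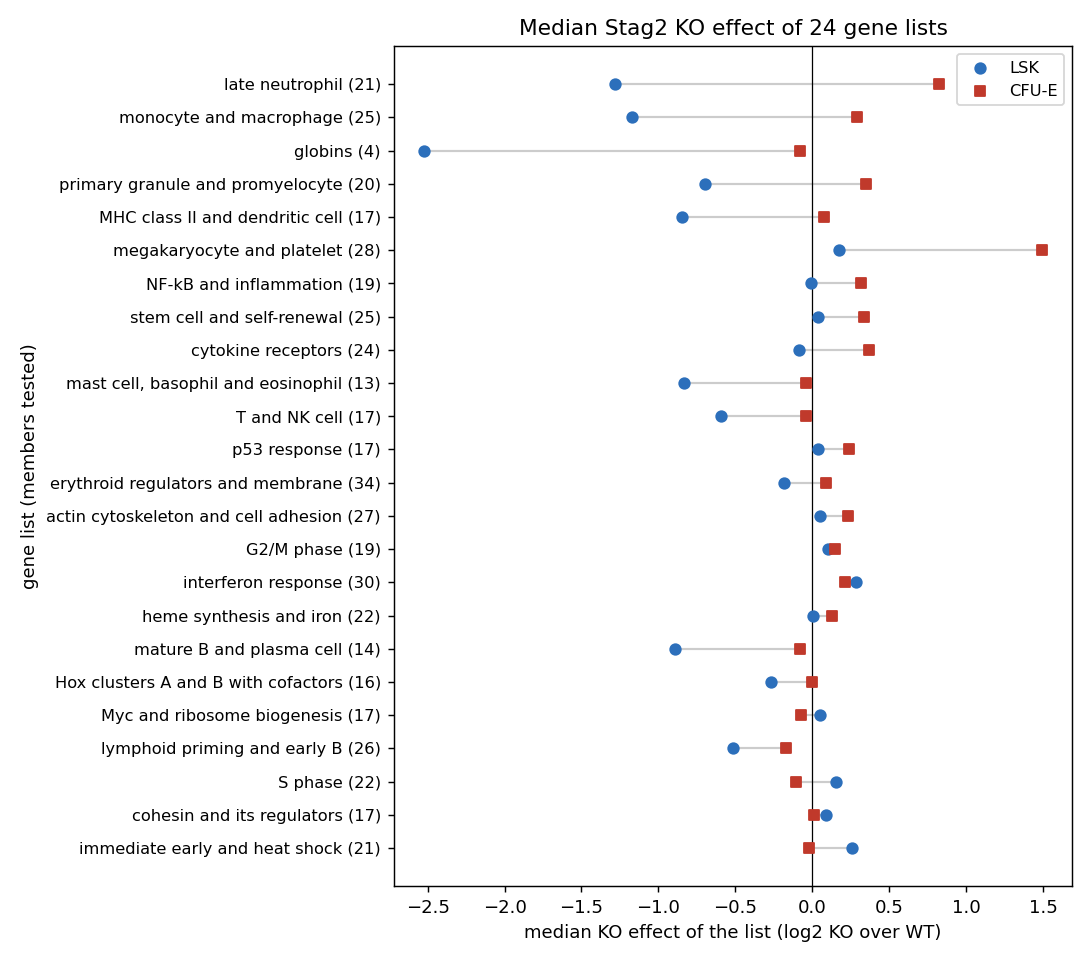
Median KO effect (x axis, log2 KO over WT) in LSK (blue circles) and CFU-E (red squares) of 24 gene lists (y axis, with the number of members tested), ordered by the median difference. The megakaryocyte and platelet list is the only one of the 24 with a CFU-E median above 1, at 1.49, and the late neutrophil list has medians of −1.28 in LSK and 0.82 in CFU-E.

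Of the cell cycle lists, G2/M had a median near that of all genes (−0.04), and S phase leaned to a higher effect in LSK. Of 22 S phase genes 20 had a higher effect in LSK, with a median of 0.19. At an unadjusted p under 0.05 there were 0, against 7.4% of all genes. The summed S phase level was 4644 to 5470 CPM in LSK KO and 3765 to 5187 in LSK WT. In CFU-E it was 6287 to 7759 in KO and 7413 to 7864 in WT, so the genotypes overlapped in both populations. Of 19 G2/M genes 0 were called, with a median of −0.04 (1 at an unadjusted p under 0.05, against 7.4% of all genes). In the list of immediate early genes and heat shock proteins, 0 of 21 were called by edgeR. DESeq2 called 2, beside 90 of all 16474 genes. At an unadjusted p under 0.05 there were 5 above, against 2.87% of all genes, 15 of 21 were positive, and the median was 0.35. Jun, a subunit of AP-1, was the closest, with 1475 ± 302 CPM in LSK KO and 993.4 ± 311 in WT (log2 fold change 0.57 ± 0.211, adjusted p = 0.522), while in CFU-E it fell from 31.63 ± 2.43 to 11.76 ± 2.44 (adjusted p = 0.0424). Its difference was 1.89 ± 0.341 (adjusted p = 0.0684, or 0.0322 when only genes that pass the filter within each population were tested). In the remaining lists 0 differences were called by edgeR or DESeq2 among 16 tested Hox genes and cofactors (4 at an unadjusted p under 0.05, median 0.02), 17 T and NK cell genes (1, −0.40), 13 mast cell, basophil and eosinophil genes (0, −0.43), 30 interferon genes (2, −0.04), 19 NF-kB genes (2, −0.82), 17 p53 genes (2, −0.29), 17 Myc and ribosome biogenesis genes (1, 0.09) and 24 cytokine receptors (3, −0.45). Over all genes 7.4% had an unadjusted p under 0.05.

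Several genes stood just outside the threshold and entered it when fewer genes were tested. With only the 9879 genes that passed the filter within each population, 22 differences were called, 14 above and 8 below, among them the 7. Of the 15 added, named after their values were seen, Ptgs1, the cyclooxygenase of platelets and stem cells, had 51.14 ± 9.6 CPM in LSK KO and 69.41 ± 8.12 in WT, against 11.24 ± 1.94 and 3.285 ± 1.14 in CFU-E (difference −2.12 ± 0.355, adjusted p = 0.0544 in the full set and 0.0217 in the smaller). Samd14 had its change in LSK, where it rose from 1.42 ± 0.269 CPM to 6.272 ± 1.58 (log2 fold change 2.15 ± 0.211, adjusted p = 0.000344), with 0.52 ± 0.207 in CFU-E (difference 1.63 ± 0.293, adjusted p = 0.0684 and 0.0217). Hdac9, a class IIa histone deacetylase, leaned opposite ways, with log2 fold changes of −1.13 ± 0.247 in LSK and 1.63 ± 0.428 in CFU-E (adjusted p = 0.0903 and 0.13). Its difference was −2.77 ± 0.49 (adjusted p = 0.0684 and 0.0322). Agpat4, an acyltransferase of phosphatidic acid synthesis, fell by 2.82 ± 0.277 in CFU-E, to 11.92 ± 1.89 CPM from 85.64 ± 2.94 (adjusted p = 0.000339), and had −0.82 ± 0.25 in LSK (difference 2.01 ± 0.369, adjusted p = 0.0776 and 0.035).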

How the data were processed

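RNA was counted in 14 libraries of sorted mouse marrow cells (LSK and CFU-E), and the 7 GMP libraries of the series stayed out of the fit. The authors deposited raw counts for 30733 genes, made with STAR 2.4 and HTSeq 0.6.1 on mm9, with DESeq2 also named, per the submitters' processing notes. The sources used here do not state the gene annotation or strand setting, and overlapping, antisense and near-identical genes are therefore uncertain.

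Computed here, with edgeR 4.0.16 in R 4.3.3: filterByExpr (minimum count 10, minimum total 15; 16474 genes kept), TMM factors (1.11 to 1.26 in LSK, 0.7446 to 0.8861 in CFU-E), and 1 quasi-likelihood fit with a mean for each of 4 groups and a flow cell term among CFU-E libraries. It leaves 9 residual degrees of freedom. P-values were Benjamini-Hochberg adjusted over all genes tested, with a threshold of 0.05. The SE is the log2 value divided by the square root of F. The pairs of libraries within a group differed by more than sampling noise (lowest chi-square per degree of freedom 5.506 of 18 pairs). Depth limits the precision of low genes: CFU-E counts are fewer, and low genes there carry wide errors. With LSK counts thinned to the shallowest CFU-E total, 28 genes were called in LSK and 10 for the difference, against 32 and 7. The fit was tested on simulated data.

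Gene lists (25, with 510 distinct members, of which 506 are in the table, 486 were tested and 14 stand in more than 1 list) and the members were chosen with earlier results of these data known. The 4 other members were not analysed here, and the list of sex-linked genes served as a check only. Named were Stag2, Stag1, called genes (the 8 largest per direction with a higher genotype mean of at least 5 CPM in both populations, and the 3 with the smallest p per direction among those under 5 CPM in 1 population), up to 2 called members per list, up to 8 genes called in both populations, up to 6 called genes with opposite effects and, for lists of the blood lineages with no call, the member with the smallest p; uncharacterised Rik symbols and those of the form Gm plus digits were left out. Of the genes this rule picks, some are not reported here. Genes outside this rule are marked as named after their values were seen. Alternatives were DESeq2 1.42.0, limma-voom (limma 3.58.1) with and without quality weights, other scalings, filters and flow cell handling, thinned LSK counts, a replicate block, and leaving out each library. Promoter windows came from RefSeq (GRCm38.p6), matched by symbol, and no coordinates were moved between builds.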

Additional observations from a re-analysis of the deposited data

Results flagged for a closer look

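The KO effect differed between LSK and CFU-E, by the test of the difference itself, in 7 genes. The log2 difference, LSK minus CFU-E, was 4.29 in Gna14, 2.83 in Cnn3, 2.42 in Mboat2, 2.19 in Tsc22d1, −1.84 in Tspan14, −2.85 in Actn1 and −2.90 in Tpm4.

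Single libraries stood far from the rest of their group in 2 of 38 groups of 4 libraries examined by Dixon's criterion, which chance alone meets in about 1 of 20. Stag2 was lowest in CFU-E KO 2, at 53.5 CPM against 82.29 to 88.05 in the other KO libraries. Tsc22d1 was lowest in CFU-E KO 1, at 40.85 CPM against 54.95 to 57.4. CFU-E KO 1 is the only KO library on flow cell A.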

How the results depend on the processing

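All 7 called differences kept their sign under 29 alternatives. The calls ended under 16 alternatives for Tspan14, 14 for Gna14, 13 for Tpm4, 12 for Actn1, 9 for Mboat2, 8 for Cnn3 and 3 for Tsc22d1. The numbers of calls, 7 for the difference, 32 in LSK and 88 in CFU-E, changed with the settings: DESeq2 gave 90, 243 and 284; no filter gave 32 and 130 for the difference and LSK; testing genes that pass in each population gave 22 for the difference; no flow cell term gave 18, 50 and 206. Flow cell A alone gave 0, 16 and 2, and flow cell B alone 0, 16 and 25. In limma-voom LSK had 92 and CFU-E 26, with quality weights 54 and 55, and robust empirical Bayes gave 12 for the difference and 54 in LSK. Leaving out LSK WT 2 and WT 4 together gave 17 in LSK. With 1 library left out the counts ran from 1 to 24 for the difference, from 6 to 194 in LSK and from 1 to 119 in CFU-E. LSK calls numbered 194 without LSK WT 1, 6 without LSK KO 1 and 14 without LSK KO 3, and CFU-E calls 54, 1, 37 and 58 without CFU-E WT 1, WT 3, KO 1 and KO 4. By the flow cell term, leaving out CFU-E WT 3 leaves the CFU-E effect to flow cell A, and leaving out KO 1 leaves it to flow cell B. These settings nearly repeat those with flow cell A or B alone, though they are counted apart above. The Cnn3 difference was 3.972 without WT 3 and 3.998 with A alone, and 2.417 without KO 1 and 2.407 with B alone. The cause of the other changes was not tested. Whether the replicate numbers pair the samples is not stated in the labels. Correlations of same-numbered deviations were mixed and cannot decide it (−0.27, −0.177 and 0.384 in LSK, 0.252, 0.287 and −0.209 in CFU-E). With the flow cell removed, those in CFU-E were −0.304, 0.5 and −0.336. With the replicate block the counts were 0, 3 and 1. The sign of the Stag2 difference turned with flow cell B alone (0.091) and without CFU-E KO 1 (0.102), with a range of −0.347 to 0.102 over the libraries left out. The median difference of all genes moved to −0.17 with flow cell B alone.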

Other observations

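The GMP libraries of the series (granulocyte and monocyte progenitors, 4 KO and 3 WT, scaled apart and not in the fit) give the levels of the 7 genes in another population, with no test run. Actn1 stood at 90.26 to 104.8 CPM in GMP KO and at 237.4 to 277.6 in WT, lower in every KO library, whereas in CFU-E it rose with the KO. Cnn3 was at 0 to 1.486 CPM in GMP KO and at 5.152 to 6.888 in WT, lower in each of the 3 populations. Tspan14 ranged from 82.53 to 125.6 CPM in KO and from 125.5 to 196 in WT. The ranges of Tpm4 (4.059 to 6.69 CPM in KO, 4.768 to 10.06 in WT) and Tsc22d1 (2.029 to 6.109 and 3.747 to 7.417) overlapped. Mboat2 and Gna14 had GMP WT means of 1.177 and 1.419 CPM.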
